A study of Mus musculus with 24 samples.

Results

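Transcripts of 10 circadian clock genes were followed in the mouse uterus: Arntl, Clock, Npas2, Per1, Per2, Per3, Cry1, Nr1d1, Dbp and Ciart. They were taken by gene symbol from a gene-level table of 22943 genes, and all 10 were in the table. Uteri came from C57BL/6 females aged 21 days. Knockouts (cKO) were PgrCre+;Ctcf f/f: Cre, driven by the progesterone receptor gene and so active where that receptor is made, removed Ctcf, whose protein CTCF anchors loops of chromatin. The floxed controls (ff) were Ctcf f/f littermates without Cre, so loss of Ctcf and the presence of the Cre allele cannot be told apart. Animals received 0.5 mg of progesterone (P4) in sesame oil or the oil alone (vehicle, V), and uteri were collected 6 hours later. The groups were knockout after progesterone (4 libraries), floxed after progesterone (4), knockout after vehicle (8) and floxed after vehicle (8). Of these 24 libraries, 16 carry the label of a sequencing batch called the mixed batch here, with 4 libraries of each group, and 8 formed a vehicle-only batch with 4 of each genotype.

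The circadian clock is a feedback loop that runs in nearly every mammalian cell. ARNTL (also called BMAL1) pairs with CLOCK or NPAS2 and switches on genes that carry E-boxes, among them the Per and Cry genes, Nr1d1, Dbp and Ciart. PER and CRY proteins and CIART then repress ARNTL and its partner, while NR1D1 (REV-ERB alpha) binds ROR elements and represses Arntl, Clock and Npas2. DBP is a transcription factor that binds D-boxes and passes the rhythm on to output genes and to the Per genes. In mouse tissues Arntl and Npas2 RNA therefore peak at about the opposite phase of the day from Dbp, Nr1d1 and Per3 RNA, and Per1 and Per2 also respond directly to hormones and other signals. For the hour of the day at which each uterus was collected, no statement was found in the labels.

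Promoter windows are shown for Ciart, Per3, Npas2, Arntl and Nr1d1, whose RNA differed with progesterone or moved together with that of Dbp or Arntl among libraries. Clock, whose RNA differed with progesterone within the mixed batch, has 3 windows, which are not shown. Each window runs from 250 bases before to 50 bases after the transcription start of RefSeq on GRCm38.p6, and 9 of the 10 genes have such a window, Per2 being the exception. Capitals mark the E-box CACGTG, the D-box TTANGTAA or the ROR element core AGGTCA, searched on both strands.
Ciart, chr3:95882179-95882478, minus strand: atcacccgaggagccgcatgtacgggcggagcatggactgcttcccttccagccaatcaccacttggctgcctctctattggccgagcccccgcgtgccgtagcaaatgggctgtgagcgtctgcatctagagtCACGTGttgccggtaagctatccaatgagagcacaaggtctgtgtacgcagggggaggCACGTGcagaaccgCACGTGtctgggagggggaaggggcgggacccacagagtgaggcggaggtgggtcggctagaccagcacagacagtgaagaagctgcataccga
Per3, chr4:151044616-151044915, minus strand: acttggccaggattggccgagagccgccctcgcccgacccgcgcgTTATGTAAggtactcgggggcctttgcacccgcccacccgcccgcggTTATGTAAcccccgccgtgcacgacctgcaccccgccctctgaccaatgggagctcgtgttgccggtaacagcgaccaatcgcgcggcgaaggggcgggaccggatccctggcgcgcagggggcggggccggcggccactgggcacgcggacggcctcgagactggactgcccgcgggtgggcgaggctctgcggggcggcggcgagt
Npas2, chr1:39194022-39194321, plus strand: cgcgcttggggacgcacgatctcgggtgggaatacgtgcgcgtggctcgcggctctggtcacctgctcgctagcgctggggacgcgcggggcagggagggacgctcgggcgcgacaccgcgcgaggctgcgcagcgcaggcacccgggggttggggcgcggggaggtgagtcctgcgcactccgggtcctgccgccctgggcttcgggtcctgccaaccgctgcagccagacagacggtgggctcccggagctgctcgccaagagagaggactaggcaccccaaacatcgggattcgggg
Arntl, chr7:113207261-113207560, plus strand: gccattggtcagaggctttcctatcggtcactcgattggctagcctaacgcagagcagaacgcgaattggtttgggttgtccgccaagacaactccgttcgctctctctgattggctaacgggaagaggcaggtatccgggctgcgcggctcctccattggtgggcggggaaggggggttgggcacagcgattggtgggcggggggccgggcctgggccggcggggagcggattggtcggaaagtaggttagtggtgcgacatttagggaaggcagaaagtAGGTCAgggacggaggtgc
Nr1d1, chr11:98775328-98775627, minus strand: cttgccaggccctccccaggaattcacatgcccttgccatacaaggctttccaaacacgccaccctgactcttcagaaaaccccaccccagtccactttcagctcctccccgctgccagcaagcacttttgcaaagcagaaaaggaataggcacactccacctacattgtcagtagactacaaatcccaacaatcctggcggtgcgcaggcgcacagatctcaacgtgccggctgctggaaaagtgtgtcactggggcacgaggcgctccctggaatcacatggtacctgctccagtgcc

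The Ciart window held 3 E-boxes, at −116, −58 and −44 from the start. At least 3 were found in 0.0883% of the 32851 windows of the same length in the table, and at least 1 E-box in 7.15%. The Per3 window held 2 D-boxes, at −205 and −158, a number reached by 0.0822% of windows, against 2.32% with at least 1. The Arntl window shown, 1 of 2 for the gene, held a ROR element core at 31, which 16.3% of windows hold. The other Arntl window held no match. A window of Per1 (1 of 2, E-box at −166) and that of Cry1 (E-box at −60) also held an E-box. The same Per1 window and 1 of 3 Clock windows held a ROR element core. No match was found in the windows of Npas2, Nr1d1 and Dbp. The steroid receptor core TGTTCT, which 19.0% of windows hold, was found in no window of these 9 genes. A match describes the letters of the window only.

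Values were RPKM (reads scaled to gene length and library size) after a batch correction by the authors. The vehicle means of the batches were equal after it, and some values lay below 0, as a constant added per gene and batch would give. Values of single libraries are therefore mostly compared within a batch. Exceptions include the Ctcf test, the search for outlying libraries, the means over all 24 libraries and the heatmap of deviations from them. The limma fit over both batches, which has a batch term, also crosses batches. It sets progesterone libraries, all of the mixed batch, against vehicle libraries of both batches. Its progesterone results can thus differ from those within the mixed batch, and both are given below. Depth ran from 29900000 to 100600000 reads per library. The smallest estimated number of reads for a value of the 10 genes was about 120, for Ciart in floxed vehicle library 10. This estimate was made from corrected values, so a constant added per gene and batch may have moved it and changed which library is lowest. Ctcf RNA averaged 11.5 ± 1.11 RPKM in knockout and 25.9 ± 2.36 RPKM in floxed vehicle libraries (SD, n = 8 each, exact permutation test with the batches pooled, p = 0.000155). Its knockout and floxed means were 11.8 and 25.5 RPKM in the mixed batch, and 11.1 and 26.3 RPKM in the vehicle-only batch. All 7 uterine markers were present. Markers of white blood cells moved with genotype: 8 of 8 were higher in knockouts in both treatments, and their summed level was 193 to 364 RPKM in knockout and 88.3 to 139 RPKM in floxed vehicle libraries of the mixed batch. By batch, 8 of the 8 passed in the mixed and 5 in the vehicle-only batch. Epithelial markers were lower in knockouts after vehicle for 4 of 5, with 0 of 5 in the mixed batch (summed level 223 to 297 RPKM in knockout and 273 to 315 RPKM in floxed libraries) and 4 of 5 in the vehicle-only batch (188 to 223 RPKM in knockout and 307 to 394 RPKM in floxed libraries). Of the uterine markers 1 was higher and 4 were lower in knockouts after vehicle, and of 5 endothelial markers 2 were higher. The part of these cell types in the genotype differences of clock genes was not tested. In these bulk samples fewer cells of a type and less RNA per cell cannot be told apart. In 5 libraries of the mixed batch (knockout vehicle 9 and 12, floxed vehicle 3, knockout progesterone 8, floxed progesterone 7), markers of oviduct or squamous epithelium stood out, and results that change without them are given below. Summed adipose markers also varied widely, from 32 to 1030 RPKM in knockout and −17.4 to 1020 RPKM in floxed libraries of the vehicle-only batch. In mixed-batch vehicle libraries they ran from 168 to 410 RPKM in knockout and 159 to 800 RPKM in floxed ones. Of 5 adipose markers 0 differed between genotypes after vehicle, and their part in the clock gene values was not tested. Whether every library is 1 animal is not said in the labels, and the p-values thus cover just the spread among these libraries, which may be technical.

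Across all 24 libraries Dbp had the highest mean level, 49.1 ± 18.9 RPKM (SD), followed by Nr1d1 at 34.9 ± 11.3 RPKM and Per1 at 24 ± 7.07 RPKM. Per3 averaged 16.2 ± 8 RPKM, Clock 10.7 ± 1.58 RPKM and Per2 10.4 ± 4.69 RPKM. Cry1 followed with 8.28 ± 2.38 RPKM, Arntl with 6.65 ± 3.42 RPKM, Npas2 with 4.52 ± 2.57 RPKM and Ciart with 3.53 ± 1.95 RPKM. Each gene differed from its neighbour in this order by less than the larger of their SDs. RPKM is scaled to gene length, but the batch correction may have moved each gene by an amount of its own, so this order describes the deposited values only.

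Most clock genes varied strongly between libraries of one group and batch. Among the 4 libraries of a group and batch the highest exceeded the lowest by up to 6.2-fold for Per2 (knockout, vehicle-only batch), 4.73-fold for Ciart, 4.49-fold for Dbp and 3.75-fold for Per3 (all floxed, vehicle-only batch), but by at most 1.76-fold for Clock (knockout after progesterone). Such ratios depend on what the batch correction added. After removal of group and batch means, the residual SD of Per2 stood at the 96.7th percentile of the 14284 tested genes, that of Per3 at the 95.8th and that of Dbp at the 94.8th. Ciart, Arntl, Per1 and Nr1d1 lay between the 91.3th and 93.9th percentile, Cry1 at the 84.2th, Npas2 at the 74.7th and Clock at the 40th. CLOCK is the partner whose RNA is known for a weak rhythm in many mouse tissues.

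**Figure D1:**
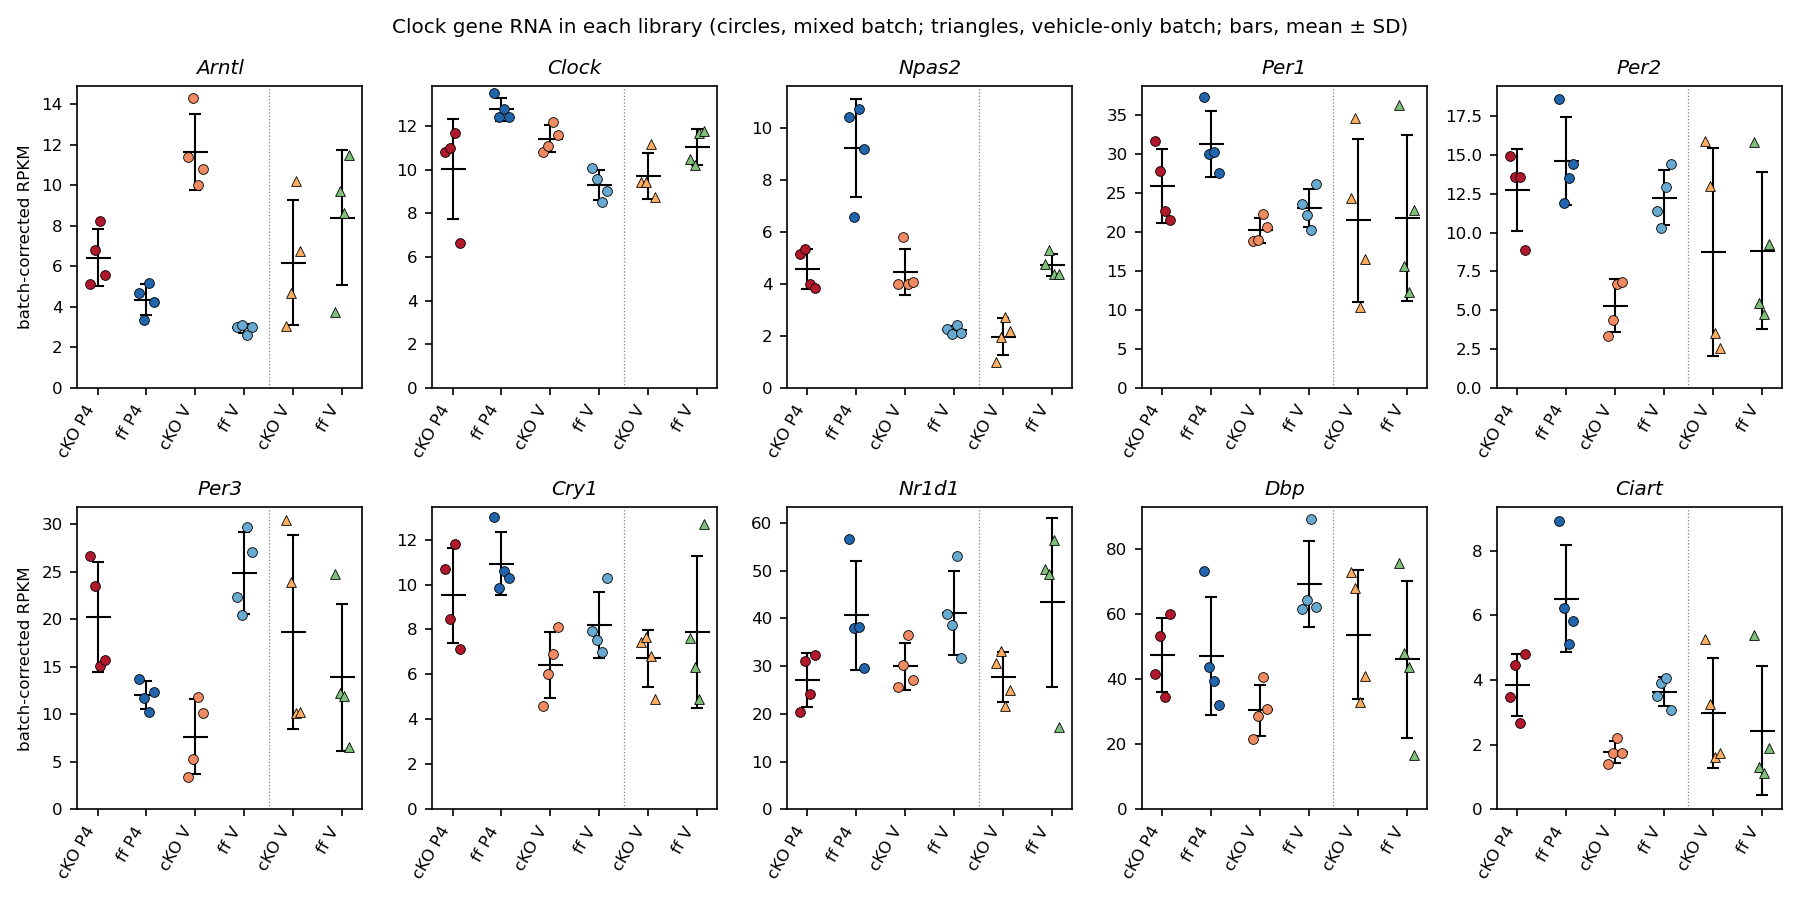
RPKM of each clock gene (vertical axis, 1 panel per gene) in every library, by group and batch; circles are mixed-batch and triangles vehicle-only libraries, and bars give the mean ± SD. In the mixed batch the 4 knockout vehicle libraries lie above the 4 floxed ones for Arntl and Npas2 and below them for Per3 and Dbp, whereas in the vehicle-only batch the genotypes overlap for all genes but Npas2.

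The first comparison asked how clock transcripts differed between knockout and floxed uteri after vehicle, and the answer differed between batches. In the mixed batch, Arntl and Npas2, both on the activating side of the loop, were higher in knockouts, and Per3 and Dbp, both driven by it, were lower. With each group and batch as a cell of its own in limma, these 4 of 10 genes passed the test in that batch, against 14.9% of all tested genes. Only Npas2 passed in the vehicle-only batch, with the opposite sign, against 13% of genes. When both batches were fitted with 1 common genotype effect, 0 of 10 passed, against 24.6% of genes, and 3 (Arntl, Per2 and Nr1d1) had an unadjusted p under 0.05, against 35.2% of genes. That count of 0 depended on single libraries: Arntl (0.86, adjusted p = 0.0405), Nr1d1 and Dbp (−0.68, adjusted p = 0.035) passed without floxed vehicle library 12, Arntl (0.90, adjusted p = 0.0242) and Per2 (−0.92, adjusted p = 0.0194) without knockout vehicle library 4, and Per2 (−0.87, adjusted p = 0.0374) without knockout vehicle library 5.

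Arntl encodes the core activator of the loop. In the mixed batch it had 11.4, 14.3, 10 and 10.8 RPKM in knockout vehicle libraries 9, 10, 11b and 12, against 3.02, 3.11, 2.61 and 2.98 RPKM in floxed libraries 1b, 2, 3 and 4. Every knockout library stood above every floxed one, and the means were 11.6 ± 1.85 RPKM in knockout and 2.93 ± 0.221 RPKM in floxed libraries (SD, n = 4 each). The log2 fold change was 1.81 ± 0.28 (SE, limma adjusted p = 0.000102). In the vehicle-only batch Arntl had 3.06, 4.68, 10.2 and 6.76 RPKM in knockout libraries 4, 5, 11a and 13, against 3.74, 9.73, 8.6 and 11.5 RPKM in floxed libraries 1a, 7, 10 and 12. There the groups overlapped, 1 floxed library was low and 1 knockout library was high, and the log2 fold change was −0.43 ± 0.28 (limma adjusted p = 0.386). The genotype difference was larger in the mixed batch by 2.24 ± 0.40 on the log2 scale (limma adjusted p = 0.00749), a test that 0.364% of genes passed. On the linear scale, where a constant added per gene and batch would cancel, knockouts minus floxed gave 8.7 RPKM for the mixed batch and −2.21 RPKM for the other, and the adjusted p of the difference between batches was 0.0558. Without the 5 libraries with oviduct or squamous markers the difference on the log2 scale was 2.25 ± 0.52, of the same size, and did not pass (adjusted p = 0.163).

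Npas2 encodes a paralogue of CLOCK that can take its place beside ARNTL. In the mixed batch it had 3.98, 5.79, 4 and 4.08 RPKM in knockout libraries 9, 10, 11b and 12, against 2.27, 2.07, 2.41 and 2.11 RPKM in floxed libraries 1b, 2, 3 and 4. The groups did not overlap, knockouts being higher (log2 fold change 0.86 ± 0.18, limma adjusted p = 0.00262). Npas2 in the vehicle-only batch had 0.994, 1.97, 2.72 and 2.19 RPKM in knockout libraries 4, 5, 11a and 13, against 4.76, 5.28, 4.39 and 4.39 RPKM in floxed libraries 1a, 7, 10 and 12. Again the groups did not overlap, but here the knockouts were lower (−1.13 ± 0.18, limma adjusted p = 0.000159). The batches differed by 1.98 ± 0.26 on the log2 scale (limma adjusted p = 0.000244), and on the linear scale knockouts minus floxed gave 2.25 RPKM for the mixed batch and −2.74 RPKM for the other (adjusted p of the difference between batches 0.0558). Clock, the other partner, was between 10.8 and 12.2 RPKM in knockout and between 8.53 and 10.1 RPKM in floxed libraries of the mixed batch, but its difference of 0.28 ± 0.12 did not pass the test (limma adjusted p = 0.12; 0.0104 without knockout progesterone library 8, which enters the estimate of the spread).

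Per3 encodes a member of the PER family of repressors. In the mixed batch it had 3.41, 5.33, 11.8 and 10.1 RPKM in knockout libraries 9, 10, 11b and 12, against 22.3, 20.4, 29.7 and 27.1 RPKM in floxed libraries 1b, 2, 3 and 4. All knockout libraries were below all floxed ones (log2 fold change −1.77 ± 0.39, limma adjusted p = 0.00315), and the call was lost without the 5 libraries with oviduct or squamous markers (−1.48, adjusted p = 0.0813). Vehicle-only values of Per3 were 30.4, 23.9, 10.1 and 10.2 RPKM in knockout libraries 4, 5, 11a and 13, against 24.8, 12.2, 11.9 and 6.6 RPKM in floxed libraries 1a, 7, 10 and 12, and the groups overlapped (0.40 ± 0.39, limma adjusted p = 0.605). The difference between the batches, −2.16 ± 0.55, did not pass (limma adjusted p = 0.128), though it did without floxed vehicle library 1a (−2.48, adjusted p = 0.0347). Per2 averaged 5.3 ± 1.71 RPKM in knockout and 12.3 ± 1.76 RPKM in floxed libraries of the mixed batch (SD, n = 4 each) without overlap, and its log2 fold change of −1.18 ± 0.42 had a limma adjusted p of 0.0677. Ciart, at 1.77 ± 0.331 RPKM in knockout and 3.64 ± 0.446 RPKM in floxed libraries, did not overlap either and had −0.87 ± 0.32 (limma adjusted p = 0.0769). In a fit to the mixed batch alone Per2 and Ciart passed too (limma adjusted p = 0.000968 and 0.00303). Per1 and Cry1 overlapped between genotypes in both batches.

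Dbp and Nr1d1 stand for the output and the second loop. Dbp had 21.8, 28.6, 40.6 and 30.9 RPKM in knockout libraries 9, 10, 11b and 12 of the mixed batch, against 61.8, 64.3, 89.3 and 62.2 RPKM in floxed libraries 1b, 2, 3 and 4. The groups did not overlap (log2 fold change −1.19 ± 0.35, limma adjusted p = 0.0244), but the call was lost without knockout vehicle library 9 (−1.05, adjusted p = 0.079), knockout vehicle library 10 (−1.17, 0.0565) or floxed vehicle library 3 (−1.07, 0.0766), and without the 5 libraries with oviduct or squamous markers (−0.87, 0.314). Dbp in the vehicle-only batch averaged 53.8 ± 19.8 RPKM in knockout and 46.1 ± 24.1 RPKM in floxed libraries (SD, n = 4 each), with overlap. Of the Dbp exon bases, 18.0% are shared with Sphk2 on the opposite strand, and 8.55% of those of Nr1d1 with Thra. Reads there cannot be told apart, since whether counting used strand is not stated in the labels.

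The genotype difference of Nr1d1 had the same sign in both batches, −0.44 ± 0.28 in the mixed and −0.53 ± 0.28 in the vehicle-only batch. Nr1d1 averaged 29.9 ± 4.85 RPKM in knockout and 41 ± 8.86 RPKM in floxed libraries of the mixed batch, and 27.6 ± 5.24 RPKM in knockout and 43.3 ± 17.7 RPKM in floxed libraries of the vehicle-only batch (SD, n = 4 each). Fitted over both batches its log2 fold change was −0.48 ± 0.19 (limma adjusted p = 0.073). Floxed vehicle library 12 decided this call. Without it the fold change was −0.66 ± 0.15 and passed (adjusted p = 0.00166), and in the vehicle-only batch it was −0.92 ± 0.20 (adjusted p = 0.00372). On the linear scale the difference over both batches, −13.4 RPKM, passed with all libraries (adjusted p = 0.0379).

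**Figure D2:**
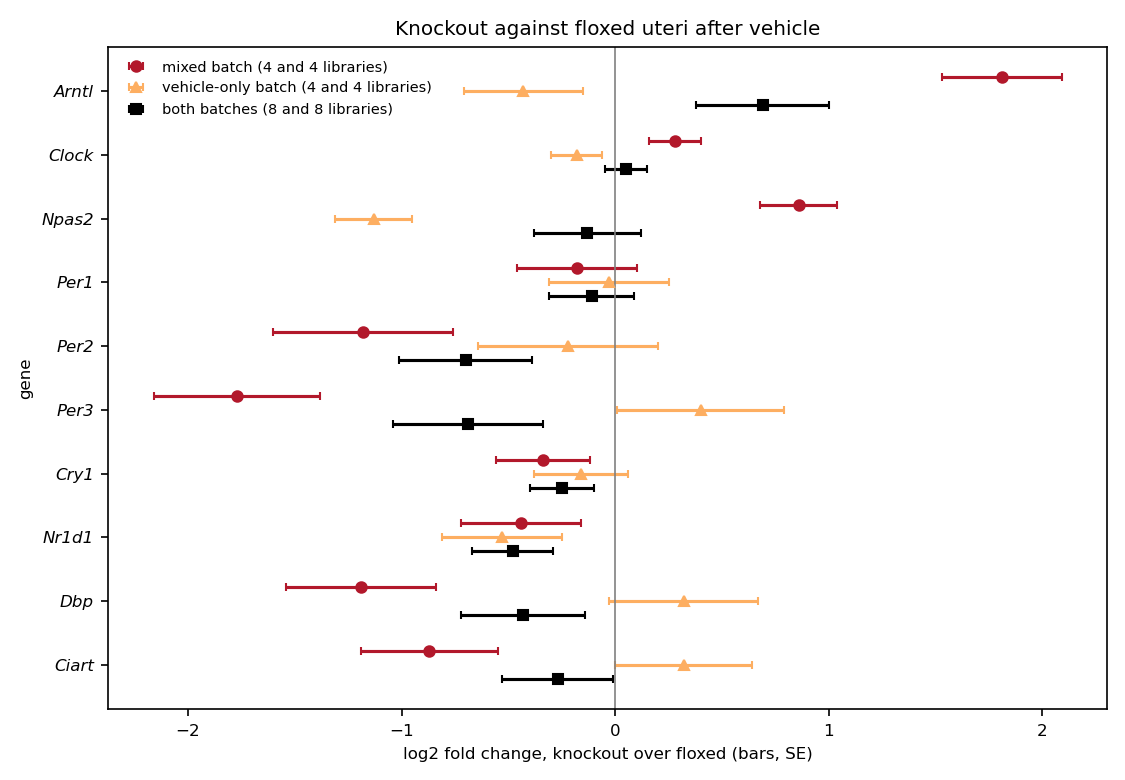
Log2 fold change of each clock gene in knockout over floxed vehicle libraries (horizontal axis, bars SE) within the mixed batch, within the vehicle-only batch, and with 1 common effect over both. Arntl, Npas2, Per3 and Dbp lie on opposite sides of 0 in the batches, and the common effect falls between, at 0.69 for Arntl and −0.69 for Per3.

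Knockout and floxed vehicle libraries did not overlap for 7 of the 10 genes in the mixed batch, against 28.5% of all tested genes, and for 1 in the vehicle-only batch, against 15.0%. For 6 genes (Arntl, Clock, Npas2, Per3, Dbp and Ciart) the sign of the genotype difference was opposite in the batches, as it was for 29.4% of all genes, and for these 6 the unadjusted p of the difference between batches was under 0.05, against 3.26% of all genes. The median size of that difference was 1.08 on the log2 scale for the clock genes and 0.14 for all tested genes. The fit behind it was added after seeing the data, and the clock genes were chosen with earlier results of these data known. The counts of clock genes beside these shares were not tested. Library numbers 1 and 11 occurred in both batches, as 1a and 1b and as 11a and 11b. Over all tested genes, the deviations of 1a and 1b from the means of their group and batch correlated with r = −0.15, and those of 11a and 11b with r = 0.04. The labels do not say whether a and b come from the same uterus.

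**Figure D3:**
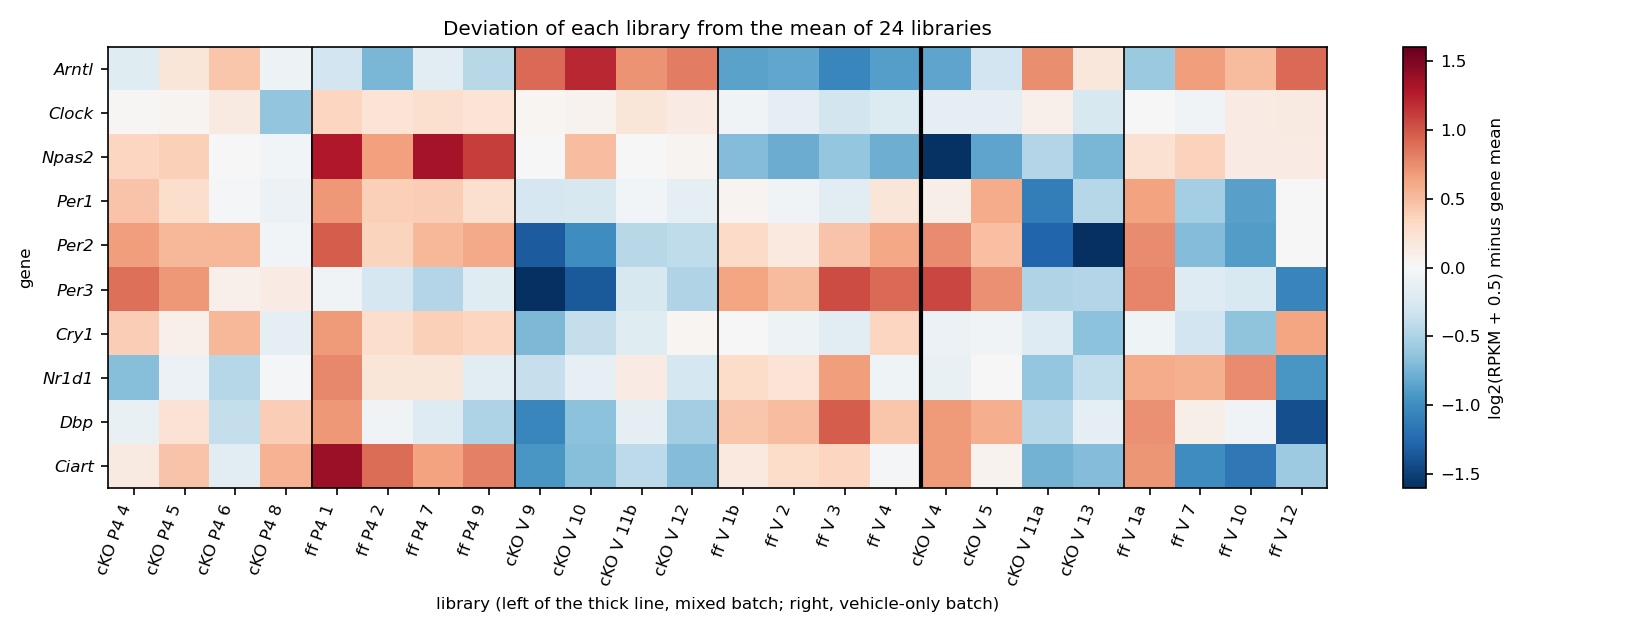
Heatmap of the log2 deviation of each clock gene (rows) from its own mean over the 24 libraries (columns, by group), with a thick line between the mixed and the vehicle-only batch. In the vehicle-only batch Per3 is at 30.4, 23.9 and 24.8 RPKM and Arntl at 3.06, 4.68 and 3.74 RPKM in knockout libraries 4 and 5 and floxed library 1a.

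Progesterone was then compared with vehicle in floxed uteri. Npas2 and Ciart were higher after progesterone in the fit over both batches, 2 of 10 clock genes against 23.0% of genes in either direction and 7.84% in the higher direction. Npas2 had 10.4, 6.57, 10.7 and 9.17 RPKM in floxed progesterone libraries 1, 2, 7 and 9. In floxed vehicle libraries of the same batch it had 2.27, 2.07, 2.41 and 2.11 RPKM, all below the progesterone libraries. The log2 fold change was 1.32 ± 0.33 over both batches (limma adjusted p = 0.00531) and 1.82 ± 0.18 within the mixed batch (limma adjusted p = 5.8e-07). Ciart, a repressor of ARNTL and CLOCK, had 8.91, 6.23, 5.11 and 5.83 RPKM in floxed progesterone libraries, against 3.52, 3.91, 4.06 and 3.07 RPKM in floxed vehicle libraries of the mixed batch, without overlap. Its log2 fold change was 1.04 ± 0.34 over both batches (limma adjusted p = 0.031) and 0.74 ± 0.32 within the mixed batch, which did not pass (limma adjusted p = 0.108). The Ciart call was lost without floxed progesterone library 1 (0.89, adjusted p = 0.0934), 2 (1.05, 0.0571) or 9 (1.08, 0.0563), and without the 5 libraries with oviduct or squamous markers (1.14, 0.0717).

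Within the mixed batch, Npas2 and Clock passed, 2 of 10 against 21.7% of genes. Clock had 13.5, 12.4, 12.8 and 12.4 RPKM in floxed progesterone libraries, against 10.1, 9.58, 8.53 and 9.01 RPKM in floxed vehicle libraries. Every progesterone library was above every vehicle library, and the log2 fold change was 0.44 ± 0.12 (limma adjusted p = 0.0114). Per3 went the other way, with 13.7, 11.7, 10.2 and 12.4 RPKM in floxed progesterone libraries, against 22.3, 20.4, 29.7 and 27.1 RPKM in floxed vehicle libraries. The groups did not overlap, but −1.02 ± 0.39 did not pass (limma adjusted p = 0.0659). Per1, an immediate-response gene of many hormones, averaged 31.3 ± 4.23 RPKM after progesterone and 23.1 ± 2.46 RPKM after vehicle (SD, n = 4 each), with 0.43 ± 0.28 (limma adjusted p = 0.3). Arntl averaged 4.35 ± 0.765 RPKM after progesterone and 2.93 ± 0.221 RPKM after vehicle (0.49 ± 0.28, limma adjusted p = 0.23). Floxed progesterone and vehicle libraries of the mixed batch did not overlap for 6 of the 10 genes, against 33.0% of all tested genes.

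In knockout uteri 0 of 10 clock genes passed for progesterone in the limma fit over both batches, against 8.67% of genes, and 2 (Per2 and Cry1) had an unadjusted p under 0.05, against 22.4%. Within the mixed batch Per3 passed, 1 of 10 against 7.42%. It had 26.7, 23.5, 15.1 and 15.7 RPKM in knockout progesterone libraries 4, 5, 6 and 8, against 3.41, 5.33, 11.8 and 10.1 RPKM in knockout vehicle libraries 9, 10, 11b and 12. All progesterone libraries were higher (log2 fold change 1.45 ± 0.39, limma adjusted p = 0.0242). The call was lost without knockout progesterone library 4 (1.30, adjusted p = 0.0739) or 5 (1.36, 0.0698), without knockout vehicle library 9 (1.14, 0.102) or 10 (1.33, 0.0679), and without the 5 libraries with oviduct or squamous markers (1.36, 0.235). On the linear scale the difference of 12.6 RPKM did not pass either (adjusted p = 0.0735).

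Per2 averaged 12.7 ± 2.66 RPKM in knockout progesterone and 5.3 ± 1.71 RPKM in knockout vehicle libraries of the mixed batch (1.22 ± 0.42, limma adjusted p = 0.0908), and Ciart 3.85 ± 0.968 RPKM in knockout progesterone and 1.77 ± 0.331 RPKM in knockout vehicle libraries (0.92 ± 0.32, limma adjusted p = 0.0933). Arntl had 5.14, 6.81, 8.21 and 5.55 RPKM in knockout progesterone libraries, against 11.4, 14.3, 10 and 10.8 RPKM in knockout vehicle libraries of that batch. For these 3 genes the groups did not overlap, though none passed (Arntl −0.82 ± 0.28, limma adjusted p = 0.0848). On the linear scale Arntl passed, with −5.21 RPKM (adjusted p = 0.0268). Counting Per3, progesterone and vehicle libraries did not overlap for 4 of 10 genes, against 14.2% of all tested genes. Npas2 averaged 4.58 ± 0.766 RPKM in knockout progesterone and 4.46 ± 0.884 RPKM in knockout vehicle libraries of the mixed batch (0.04 ± 0.18).

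**Figure D4:**
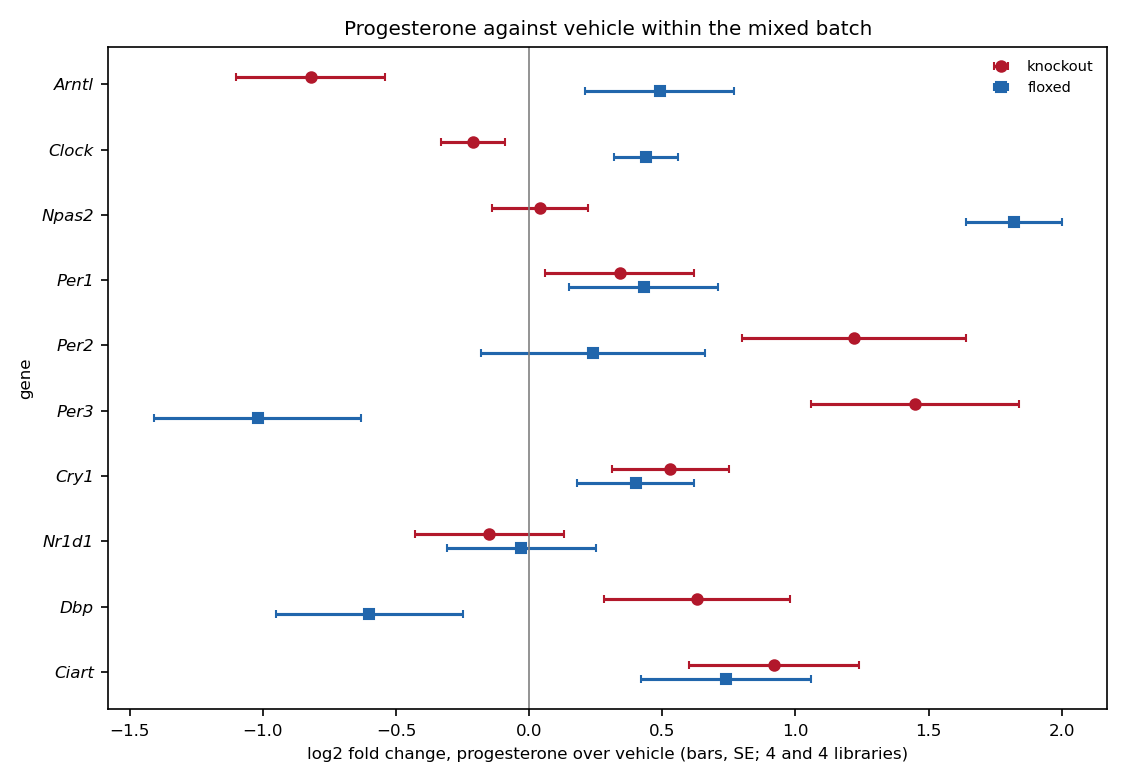
Log2 fold change of each clock gene in progesterone over vehicle libraries of the mixed batch (horizontal axis, bars SE), in knockout uteri (circles) and floxed uteri (squares). Npas2 is at 0.04 in knockout and 1.82 in floxed uteri, and Per3 is at 1.45 in knockout and −1.02 in floxed uteri.

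The genotypes' responses to progesterone were compared directly. With a batch term, 0 of 10 clock genes passed in limma, against 2.49% of genes, and 2 (Clock and Per3) had an unadjusted p under 0.05, against 14.2%. Within the mixed batch, 3 of 10 passed, against 1.92% of genes. The response of Npas2 was lower in knockouts by −1.78 ± 0.26 on the log2 scale (limma adjusted p = 0.00055) and that of Clock by −0.65 ± 0.17 (limma adjusted p = 0.047). The response of Per3 was higher in knockouts by 2.46 ± 0.55 (limma adjusted p = 0.0199). The Clock call was lost when any 1 of 19 libraries was left out, and the Per3 call without knockout progesterone library 5 (2.38, adjusted p = 0.0506). Without the 5 libraries with oviduct or squamous markers only Npas2 passed (Per3 2.21, adjusted p = 0.237; Clock −0.46, adjusted p = 0.222). These differences use the same mixed-batch vehicle libraries as the genotype difference after vehicle given above, so they are not separate evidence of it.

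After progesterone, knockout and floxed uteri were compared in the mixed batch, which held all progesterone libraries. With a batch term 0 of 10 clock genes passed in limma, against 19.4% of genes, and 2 (Clock and Npas2) had an unadjusted p under 0.05, against 31.9%. With the spread taken within the 6 group and batch cells, the same fold changes of Npas2 and Clock passed, 2 of 10 against 19.5%. Npas2 had 5.14, 5.33, 3.99 and 3.84 RPKM in knockout and 10.4, 6.57, 10.7 and 9.17 RPKM in floxed progesterone libraries. Every knockout library was below every floxed one (−0.92 ± 0.18, limma adjusted p = 0.00103). Clock had 10.8, 11, 11.7 and 6.65 RPKM in knockout and 13.5, 12.4, 12.8 and 12.4 RPKM in floxed progesterone libraries. The groups did not overlap, yet knockout progesterone library 8 lay far below the other 3, and without it the difference was −0.19 (adjusted p = 0.0999), against −0.37 ± 0.12 with it (limma adjusted p = 0.0341). The Clock call was also lost without floxed progesterone library 1 (adjusted p = 0.0769), 2 (0.0554), 7 (0.0635) or 9 (0.0555).

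Ciart averaged 3.85 ± 0.968 RPKM in knockout and 6.52 ± 1.66 RPKM in floxed progesterone libraries (SD, n = 4 each), and Per3 20.2 ± 5.75 RPKM in knockout and 12 ± 1.47 RPKM in floxed ones. Both were without overlap and neither passed the test (Ciart −0.69 ± 0.32, limma adjusted p = 0.145; Per3 0.70 ± 0.39, limma adjusted p = 0.225). Knockout and floxed progesterone libraries did not overlap for 4 of the 10 genes, against 21.5% of all tested genes. Dbp averaged 47.4 ± 11.4 RPKM in knockout and 47.2 ± 18.1 RPKM in floxed progesterone libraries (0.05 ± 0.35, 95% confidence interval −0.68 to 0.78).

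Some of the clock genes moved together among libraries of one group and batch. After removal of the 6 group and batch means, 8 of 45 gene pairs correlated over the 24 libraries (permutation test within groups and batches, Benjamini-Hochberg over 45 pairs), and 17 had an unadjusted p under 0.05. This test was not run on other gene pairs, so these 2 counts stand without a share of all pairs. None of the 8 pairs held Clock or Npas2. The weakest of them had an r of 0.62, a size that 14 of the 45 pairs reached, against 8.78% of all pairs of tested genes. Nr1d1 and Dbp had the closest relation (Pearson r = 0.89, adjusted permutation p = 0.0009, Spearman rho = 0.86), with r = 0.89 in each batch and 0.81 without the 2 libraries farthest from the median. Dbp also rose and fell with Per3 (r = 0.77, adjusted permutation p = 0.0129, rho = 0.74), with r = 0.52 in the mixed and 0.93 in the vehicle-only batch. Arntl ran against Per3 (r = −0.77, adjusted permutation p = 0.0129, rho = −0.73) and against Ciart (r = −0.79, adjusted permutation p = 0.0403, rho = −0.64). These relations of Arntl were closer in the vehicle-only batch, r = −0.93 and −0.9, than in the mixed batch, r = −0.44 and −0.33. Without the 2 farthest libraries r was −0.65 and −0.56.

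Per2 shared 4 of the 8 pairs, with Per1 (r = 0.83, adjusted permutation p = 0.0211, rho = 0.86), Per3 (r = 0.77, adjusted permutation p = 0.0347, rho = 0.76), Cry1 (r = 0.62, adjusted permutation p = 0.0211, rho = 0.75) and Ciart (r = 0.76, adjusted permutation p = 0.0313, rho = 0.66). For Ciart the relation rested on the vehicle-only batch, with r = 0.16 in the mixed and 0.9 in the vehicle-only batch, whereas it was 0.66 and 0.86 for Per1, 0.84 and 0.78 for Per3, and 0.85 and 0.57 for Cry1. Without the 2 farthest libraries the 4 values of r were 0.76, 0.71, 0.6 and 0.69. By rho 8 pairs passed as well, but not the same ones. Arntl with Ciart and Per2 with Ciart did not pass by rho (adjusted permutation p = 0.0534 for each). Per1 with Cry1 (adjusted permutation p = 0.0305) and Dbp with Ciart (0.0148) passed by rho only. The count of pairs depended on single libraries, with 17 pairs without floxed vehicle library 12 and 3 pairs without floxed vehicle library 1a or 7. Without the 5 libraries with oviduct or squamous markers 4 pairs passed.

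**Figure D5:**
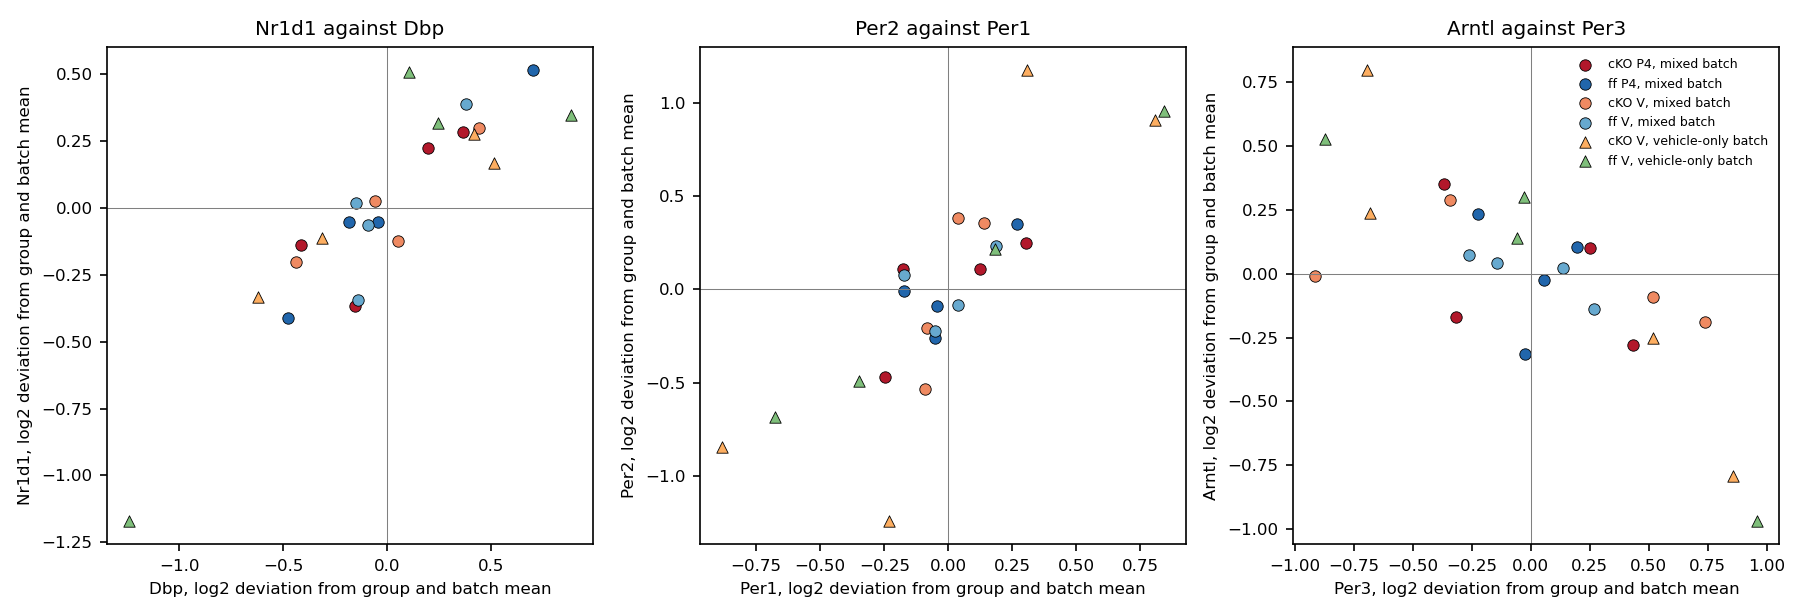
Log2 deviations of 3 gene pairs from the mean of their group and batch, with 1 point per library, circles for the mixed and triangles for the vehicle-only batch. Nr1d1 rises with Dbp (r = 0.89), Per2 rises with Per1 (r = 0.83), and Arntl falls as Per3 rises (r = −0.77), and the vehicle-only libraries spread widest.

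Over the same residuals, the tested genes most like Dbp were Nr1d2 (r = 0.94), which encodes the paralogue REV-ERB beta, Msc (0.9), Mapk1ip1 (0.87), Syndig1 (0.87), Letm2 (0.87) and Tef (0.86), which like Dbp encodes a D-box binding factor. The least like were Tnc (r = −0.9), Smarca4 (−0.85) and Cd44 (−0.85). For Arntl the most like were Tbc1d22b (r = 0.86), 0610040J01Rik (0.85), Spon2 (0.84), Adamts4 (0.81), Tnc (0.81) and Nfkb2 (0.8), and the least like Rab6b (−0.83), Rnf223 (−0.81) and Gm13212 (−0.78). Several of the Arntl values rested on the vehicle-only batch: for Tbc1d22b r was 0.26 in the mixed and 0.96 in the vehicle-only batch, whereas for Nr1d2 with Dbp it was 0.86 and 0.99. These values describe 24 libraries that share preparation and batch, and carry no test.

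Another 42 genes of the clock pathway, all tested, were read in the same fits. After vehicle and over both batches, 1 was higher in knockouts and 4 were lower, against 24.6% of all tested genes in either direction, with a median log2 fold change of −0.05 against −0.01 for all tested genes. The higher gene was Fbxl21, an F-box gene that acts on CRY proteins (0.93 ± 0.19, limma adjusted p = 0.000571). The lower genes were Usp2, a rhythmic ubiquitin protease (−0.47, adjusted p = 0.00387), Rorb, a ROR receptor (−0.40, 0.0107), Cry2, the paralogue of Cry1 (−0.46, 0.0175), and Bhlhe40, an E-box repressor (−0.29, 0.0369). Within the mixed batch 8 were lower and 1 higher in knockouts, against 14.9% of all tested genes, among the lower Tef (−1.11 ± 0.24, limma adjusted p = 0.00284) and Nr1d2 (−0.91 ± 0.21, limma adjusted p = 0.00388), and the higher was Nfil3, a repressor at D-boxes (0.77 ± 0.25, limma adjusted p = 0.0407). In the vehicle-only batch Fbxl21 was higher (1.13 ± 0.26, limma adjusted p = 0.00463) and 0 were lower, against 13% of genes.

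After progesterone against vehicle, 5 of the 42 were higher and 1 was lower in knockouts, against 8.67% of genes, and 6 were higher and 4 lower in floxed uteri, against 23.0%. With a batch term the difference in response passed for Nampt alone, against 2.49% of genes. Within the mixed batch, in the fit with 6 cells, 1 of the 42 was higher and 0 were lower, against 1.92% of genes. The lower response of Nampt thus did not pass there. Nampt, an enzyme of NAD synthesis, was higher after progesterone in floxed uteri (0.68 ± 0.07, limma adjusted p = 5.62e-07), and its response was lower in knockouts by −0.46 ± 0.10 (limma adjusted p = 0.00786). Fkbp5, a steroid receptor cochaperone, was higher after progesterone by 1.78 ± 0.35 in knockouts (limma adjusted p = 0.00244) and 2.39 ± 0.35 in floxed uteri (limma adjusted p = 3.99e-05). Nfil3 was higher by 1.06 ± 0.28 in knockouts (limma adjusted p = 0.0185) and 1.46 ± 0.28 in floxed uteri (limma adjusted p = 0.000602). Usp2 was higher by 0.81 ± 0.15 in each genotype. Rora and Rorb, which encode ROR receptors that activate Arntl, were lower after progesterone in floxed uteri (−0.68 ± 0.21, limma adjusted p = 0.0204, and −0.50 ± 0.15, limma adjusted p = 0.0171). After progesterone, 2 were higher in knockout than in floxed uteri, Fbxl21 (1.27 ± 0.26, limma adjusted p = 0.00133) and Arntl2, a paralogue of Arntl (0.81 ± 0.23, limma adjusted p = 0.0138), and 3 were lower, Nampt, Fbxw11 and Usp2, against 19.4% of genes.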

How the data were processed

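RPKM values per gene, batch-corrected by the authors, were deposited in 1 table and are treated here as a score because 6.66% of its values lie below 0. Among genes whose vehicle mean exceeded 1 RPKM, 13688 of 13688 had the same mean in each batch (relative tolerance 0.0001), as a constant added per gene and batch would give. Tools named in the submitters' processing notes are Partek, TopHat and cutadapt 2.7, with mm10 as the build. How reads were counted, with which strand setting, and which tool corrected for batch is not stated in the labels or file. Plain RPKM had been assumed in the design, whose test stayed in use after values below 0 became 0 (0.297% of tested values, in 351 genes, none among the clock genes). A difference on the log2 scale would depend on such a constant, and a difference in RPKM within a batch would not.

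The 14284 genes reaching 1 RPKM in 4 or more libraries were tested as log2(RPKM + 0.5), which understates changes of low genes, with limma 3.58.1 in R 4.3.3 (eBayes with trend and robust, 4 groups and a batch term, 19 residual degrees of freedom, a median of 3.34 prior ones, two-sided, Benjamini-Hochberg at 0.05 over all tested genes). A second limma fit, with 6 cells of group and batch, was added after seeing the data. Pairs of clock genes were compared over residuals from the 6 cells with 100000 two-sided permutations within cells (Python 3.11.15, numpy 2.4.6). The fit with a batch term and the pair test were tested on simulated data with known changes; the fit with 6 cells was tested only on data with no batch difference, so its power to find one was not tested.

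The clock genes and the lists of other clock genes and cell markers were chosen with earlier results of these data known. Text names were all 10 clock genes, at most 6 called genes of the other 42 per contrast, and Ctcf. Also named were the 6 genes most and 3 least like Dbp and Arntl, taken from outside the 10 clock genes. The Arntl promoter was added after values were seen. Positions and exon overlaps are from GENCODE M21 (GRCm38), promoters from RefSeq (GRCm38.p6). Depth was read from steps between low values in at least 128 genes per library. Residuals of libraries with the same number in different groups correlated between −0.34 and 0.54 in 11 pairs, 6 of them over 0.1, so numbers were not used as a block. Alternatives were other pseudocounts, filters, scalings, weights, batches alone, a replicate block and leaving out libraries.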

Additional observations from a re-analysis of the deposited data

Results flagged for a closer look

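For 5 results the effect differed between groups of libraries by a test of the difference itself, each in the limma fit with 6 cells of group and batch. The genotype difference after vehicle, knockout over floxed, was larger in the mixed than in the vehicle-only batch for Arntl by 2.24 on the log2 scale (adjusted p = 0.00749) and for Npas2 by 1.98 (adjusted p = 0.000244). Every mixed-batch knockout library was above every floxed library for both genes, and in the vehicle-only batch every knockout library was below every floxed one for Npas2.

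The response to progesterone within the mixed batch differed between knockout and floxed uteri for Npas2 by −1.78 (adjusted p = 0.00055), for Per3 by 2.46 (adjusted p = 0.0199) and for Clock by −0.65 (adjusted p = 0.047). Leaving out the 5 libraries with oviduct or squamous markers kept the Npas2 calls in both comparisons. The calls of Arntl (2.25), Per3 (2.21) and Clock (−0.46) did not pass with these fewer libraries, the Arntl difference being of the same size as with them. The clock genes were also searched for single outlying libraries in 40 groups of 4 to 8 libraries, and 0 stood out by Dixon's test of the gap to the nearest library over the range. The nearest to its limit was Clock in knockout progesterone library 8, whose gap was 0.822 of the range. Chance marks about 1 group in 20. The vehicle groups pooled both batches, so a library outlying within 1 batch could be missed. In the mixed batch, Dbp was 89.3 RPKM in floxed vehicle library 3 and 61.8 to 64.3 RPKM in the others. Npas2 there was 5.79 RPKM in knockout vehicle library 10 and 3.98 to 4.08 RPKM in the others. Vehicle libraries were not searched within a batch.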

How the results depend on the processing

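Counts of clock genes past the test changed with how the batches entered and with weights per library, whose estimation stopped before it converged. For knockout against floxed after vehicle the count was 0, against 6 in the mixed batch alone, 1 in the vehicle-only batch alone, 5 with weights per library, 1 (Nr1d1) on the linear scale, and 0 to 3 without single libraries (Arntl, Nr1d1 and Dbp without floxed vehicle library 12). After progesterone it was 0, against 5 in the mixed batch alone, 3 with weights, 2 with 6 cells, 1 with pseudocount 1, 1 on the linear scale, and 0 to 1 without single libraries (Clock, Npas2 or Nr1d1 without knockout progesterone library 6, knockout vehicle library 4 or floxed vehicle library 12). For progesterone in knockouts it was 0, against 4 in the mixed batch alone, 4 with weights and 1 with 6 cells, and 0 without any single library. In floxed uteri it was 2, against 6 in the mixed batch alone, 4 with weights, 1 without the 5 libraries with oviduct or squamous markers, and 1 to 4 without single libraries. For the difference in response it was 0, against 3 in the mixed batch alone, 4 with weights, 3 with 6 cells and 1 on the linear scale, and 0 without any single library. The share of all tested genes called in the mixed batch alone is not given here, so its counts of clock genes stand without one. The cause of these changes was not tested.

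In the fit with 6 cells, leaving out the 5 libraries gave 2 for the mixed-batch genotype difference after vehicle, 1 for its difference between batches, 0 for progesterone in knockouts, 1 for genotype after progesterone and 1 for the difference in response. The linear scale gave 0 for the difference between batches and 4 for progesterone in floxed uteri. For the count of 4, the share of all tested genes on that scale is not given here. Without single libraries the counts ran from 3 to 5 and 1 to 2 for the genotype difference after vehicle in the mixed and vehicle-only batch, 2 to 3 for the difference between them, 0 to 3 and 2 to 4 for progesterone in knockout and floxed uteri, 1 to 3 for genotype after progesterone and 1 to 3 for the difference in response. Correlated pairs numbered 8, 4 without the 5 libraries and 3 to 17 without single libraries.

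With the replicate block, 4 clock genes (Clock, Npas2, Cry1 and Ciart) passed for progesterone in floxed uteri. The share of all tested genes that it called there is not given here, so that count stands without one. Library numbers share no stated animal or day. Of all genes the block called 822 instead of 2767 after progesterone, 162 instead of 1238 for progesterone in knockouts and 26 instead of 355 for the difference in response. Weights called 6500, 7123, 5965, 6276 and 4122 genes for genotype after vehicle, genotype after progesterone, progesterone in knockouts, progesterone in floxed uteri and the difference in response. Without the 5 libraries 398, 2064 and 213 were called for the last 3, and with 6 cells 1266 and 17 for genotype after vehicle in the mixed batch and its difference between batches, and 216, 1849 and 61 for progesterone in knockouts, in floxed uteri and their difference. A filter of at least 5 RPKM, which tests fewer genes, called 2293 for genotype after vehicle and 236 for the difference in response, and with 6 cells 1337, 1122 and 28. The vehicle-only batch alone called 1178, no batch term 1909 for progesterone in knockouts, and the linear scale 1 for the difference between batches. For the difference in response the count ran from 210 without knockout progesterone library 5 to 716 without floxed vehicle library 12.

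Fold changes that turned sign were not past the test in the fit reported unless stated. After vehicle, the mixed batch alone gave 0.86 for Npas2 and weights 0.26; the vehicle-only batch alone gave −0.43 for Arntl, −0.18 for Clock, 0.40 for Per3, 0.32 for Dbp and 0.32 for Ciart; the block gave 0.10 for Ciart and 0.09 for Per1; averaging 1a with 1b and 11a with 11b gave 0.01 for Per1. After progesterone the block gave 0.04 for Npas2, −0.22 for Per3 and −0.53 for Dbp. For progesterone in knockouts the block gave 0.51 for Arntl, 0.21 for Clock, −0.10 for Per1 and −0.53 for Dbp. For progesterone in floxed uteri Arntl was 0.05 after quantile normalization, 0.49 in the mixed batch alone and with 6 cells, and 0.27 with weights. For the difference in response the block gave 0.74 for Arntl, 0.14 for Npas2, −0.72 for Per2, −0.48 for Dbp and −0.36 for Cry1; weights gave −0.14 for Cry1 and 0.13 for Nr1d1; Ciart was 0.18 in the mixed batch alone and with 6 cells, where the linear scale gave −0.80. Without the 5 libraries Clock was −0.01 after vehicle, Dbp −0.14 after progesterone, Nr1d1 0.02 and, with 6 cells, 0.12 for progesterone in floxed uteri, Arntl 0.03, Clock 0.11, Dbp −0.13 and, with 6 cells, Npas2 −0.01 for progesterone in knockouts, and Arntl 0.23, Dbp −0.01 and, with 6 cells, Ciart −0.20 and Per1 0.00 for the difference in response.

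Leaving out single libraries turned the sign of these small fold changes, with ranges over all 24 removals. With a batch term they were, for genotype after vehicle, Npas2 −0.27 to 0.05 and Per1 −0.24 to 0.02. They were, for genotype after progesterone, Dbp −0.11 to 0.28. They were, for progesterone in floxed uteri, Arntl −0.23 to 0.03 and Nr1d1 −0.22 to 0.09. They were, for progesterone in knockouts, Clock −0.18 to 0.08. They were, for the difference in response, Cry1 −0.07 to 0.16 and Nr1d1 −0.22 to 0.10. With 6 cells they were, for genotype after vehicle in the vehicle-only batch, Per1 −0.30 to 0.26, Per2 −0.61 to 0.19, Cry1 −0.34 to 0.09 and Dbp −0.09 to 0.62. They were, for the difference between batches, Nr1d1 −0.08 to 0.48 and Per1 −0.45 to 0.12. They were, for progesterone in floxed uteri, Nr1d1 −0.20 to 0.11. They were, for progesterone in knockouts, Npas2 −0.03 to 0.15. They were, for genotype after progesterone, Dbp −0.11 to 0.28. They were, for the difference in response, Cry1 0.00 to 0.26 and Nr1d1 −0.26 to 0.05.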
